A study of Mus musculus with 6 samples.

Results

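The protein 4.1 genes encode membrane skeleton proteins that share a FERM domain, a module that docks on the inner face of the plasma membrane. The set described here holds 7 of the 35275 genes in the count table: Epb4.1 and its paralogues Epb4.1l1, Epb4.1l2, Epb4.1l3, Epb4.1l4a, Epb4.1l4b and Epb4.1l5, written with the older symbols of the table. They were found by symbol, each in 1 row. The family was selected on the counts of Epb4.1, which were 0 in every library of one group, so the values of Epb4.1 are given as a description without a test. The paralogues were taken by family name.

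RNA was sequenced from NIH3T3, a fibroblast line from mouse embryos, in 6 libraries. In 3 of them the cells had been stably transfected with a pIRES plasmid for HA-tagged NgBR, the Nogo-B receptor, and selected with G418. The other 3 came from wild-type NIH3T3 cells, for which no transfection or selection is given, and both lines grew in DMEM with 10% calf serum. The sources used here do not say whether the transfected line is a clone or a pool. They also do not tie the libraries of a group to separate cultures, and p-values then measure only the spread between libraries, which may be technical. Nus1, the mouse gene of NgBR, was at 184, 185 and 165 CPM (read counts scaled to library size) in the transfected line's libraries, against 212, 187 and 233 CPM in wild-type libraries (log2 fold change -0.24, edgeR adjusted p = 0.786). The label is thus not borne out by counts at the mouse gene, the sources used here do not give the species of the transgene, and the group is called NgBR-labelled below.

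In red blood cells, where the family was first described, protein 4.1 fastens short actin filaments to spectrin and ties this lattice to the membrane proteins glycophorin C and band 3. Epb4.1, Epb4.1l1, Epb4.1l2 and Epb4.1l3 encode proteins that carry both the FERM domain and a spectrin-actin-binding domain. The products of Epb4.1l4a, Epb4.1l4b and Epb4.1l5 have the FERM domain without the spectrin-actin-binding one. In other cells the family links adhesion molecules, ion channels and polarity complexes to the cytoskeleton. The loss of Epb4.1 raises the question of whether transcripts of the paralogues increased beside it.

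NgBR-labelled libraries held between 7369961 and 10358381 counts and wild-type libraries between 29515072 and 35511769, so that wild-type libraries were on average 3.5 times deeper. Depth and group cannot be told apart here, and thinning all libraries to the shallowest 1 served as an alternative. CPM values below use library sizes scaled by edgeR's TMM factors. All 10 fibroblast markers examined were expressed, with a summed level of 22897 to 33234 CPM in NgBR-labelled libraries and 21797 to 25640.3 CPM in wild-type libraries, and 0 of the 10 were called. Of these, Col1a1 had a separate, higher range in NgBR-labelled libraries and Pdgfra a separate, lower one. Of the 11 erythroid markers in the table, 0 passed the filter on low counts and Gata1, Hba-a2 and Hbb-bt had 0 counts in all libraries. Their sum was 0.396 to 0.86 CPM in NgBR-labelled libraries and 0.783 to 1.4 CPM in wild-type libraries. The sums of 9 neural, 9 skeletal muscle and 7 endothelial markers were low and did not overlap between the groups. Among all tested genes, 18.6% had CPM ranges that were separate between the groups. The neural sum was 10.4 to 24.4 CPM in NgBR-labelled libraries and 7.75 to 9.99 CPM in wild-type libraries, with Olig2 and Dcx at 0. The muscle sum was 7.52 to 16.7 CPM in NgBR-labelled libraries and 2.06 to 3.7 CPM in wild-type libraries, with Myod1 and Myog at 0. The 2 tested muscle markers had separate, higher ranges in NgBR-labelled libraries without being called. These were Tnnt2, cardiac troponin T (log2 fold change 2.72, edgeR adjusted p = 0.0571), and Des, desmin (log2 fold change 1.37, edgeR adjusted p = 0.154). Tested markers were 10 fibroblast, 4 neural, 2 muscle, 2 leukocyte, 1 epithelial and 1 endothelial. Of these only Syt1, a synaptic vesicle protein, was called, beside 3.39% of all tested genes. It was higher in NgBR-labelled libraries, with 17 counts over them and 2 over the wild-type ones. Syt1 was at 0.702, 0.594 and 0.573 CPM in NgBR-labelled libraries and 0, 0.0677 and 0 CPM in wild-type libraries. It passed the filter on low counts only through the group where it was high, so its call is a description. Map2, a neuronal microtubule protein, also had separate ranges (log2 fold change 1.58, edgeR adjusted p = 0.0562). Tubb3 and Snap25, also tested as neural markers, had overlapping ranges and log2 fold changes of 0.16 and 0.45. The epithelial sum was 0.791 to 2.67 CPM in NgBR-labelled libraries and 0.237 to 0.859 CPM in wild-type libraries, the endothelial sum 3.17 to 4.21 CPM in NgBR-labelled and 1.96 to 2.58 CPM in wild-type libraries, and the leukocyte sum 3.23 to 4.75 CPM in NgBR-labelled and 2.2 to 5.18 CPM in wild-type libraries. The part of these markers in the results was not tested.

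Epb4.1 is the gene of the red cell protein, mutated in human hereditary elliptocytosis, and is also transcribed in many nucleated cells. It had 0 counts in each of the 3 NgBR-labelled libraries, against 371, 374 and 277 counts in wild-type libraries 1 to 3. The wild-type counts correspond to 10.6, 12.7 and 8.34 CPM, a mean of 10.5 ± 2.16 CPM (SD, n = 3). The groups did not overlap. At the wild-type level the NgBR-labelled libraries would have held 75.1, 107 and 110.3 counts of Epb4.1, together 292. Set against 3 counts over the group, Epb4.1 was at least 97.3-fold lower in NgBR-labelled libraries. The bound falls with the counts behind it, to 72.3-fold, 61.8-fold and 60.5-fold without NgBR-labelled library 1, 2 or 3. Such bounds and intervals take in counting error alone, as reads that carry no molecular identifier are not independent molecules. In RNA from whole cultures, fewer cells with a transcript and less of it per cell cannot be told apart.

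A complete absence of counts at this level was rare in the table. Of the 8788 tested genes whose wild-type mean was at least that of Epb4.1, 4 had 0 counts in all NgBR-labelled libraries, namely Epb4.1, Tgfbi, Ndn and Slc6a15. No gene had the opposite pattern, with 0 counts in wild-type libraries and such a level in NgBR-labelled ones. Wild-type libraries were on average 3.5 times deeper, so 0 counts is a stricter condition there and the directions are not compared alike. The other 3 genes were chosen for these values and are named as a description.

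The Epb4.1 gene (ENSMUSG00000028906, now Epb41, mm10 chromosome 4, 131923413 to 132075321, minus strand, protein-coding) is long, and its annotation holds 19 transcripts that begin at different places along the locus. The counts are per gene, so 0 covers the transcripts of the annotation used for counting. Its release is not given, and it may differ from these 19 transcripts. RefSeq (GRCm38.p6) gives 3 start regions that span 26.2 kb, while the most distal starts of the 19 transcripts span 138 kb. The 3 regions therefore do not cover every annotated start. Their sequences are shown because they are RefSeq starts of the gene that had no counts. Each runs from 250 bases before the start to 50 after it, 5′ to 3′ on the minus strand, with CpG dinucleotides in capitals.
Epb4.1, upstream start, chr4:132075264-132075563: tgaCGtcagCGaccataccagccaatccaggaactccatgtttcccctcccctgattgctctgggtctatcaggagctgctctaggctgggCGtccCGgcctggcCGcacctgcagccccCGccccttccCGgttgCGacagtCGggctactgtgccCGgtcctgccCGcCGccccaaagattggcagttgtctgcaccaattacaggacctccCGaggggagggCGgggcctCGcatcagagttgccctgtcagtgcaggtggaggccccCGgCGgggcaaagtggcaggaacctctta
Epb4.1, middle start, chr4:132072048-132072347: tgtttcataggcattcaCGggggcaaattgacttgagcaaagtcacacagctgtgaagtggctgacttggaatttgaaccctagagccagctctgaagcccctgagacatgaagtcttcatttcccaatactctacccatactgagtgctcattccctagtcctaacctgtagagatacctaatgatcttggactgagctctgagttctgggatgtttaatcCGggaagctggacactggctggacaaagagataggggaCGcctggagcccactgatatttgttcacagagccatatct
Epb4.1, downstream start, chr4:132049029-132049328: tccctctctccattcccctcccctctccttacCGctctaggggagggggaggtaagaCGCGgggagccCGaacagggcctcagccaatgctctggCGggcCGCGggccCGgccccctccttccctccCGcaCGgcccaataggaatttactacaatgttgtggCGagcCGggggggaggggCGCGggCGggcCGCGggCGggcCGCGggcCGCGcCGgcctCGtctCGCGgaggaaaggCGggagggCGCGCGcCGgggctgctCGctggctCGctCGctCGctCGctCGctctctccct
The upstream region held 17 CpG dinucleotides (a C followed by a G, read on the strand shown, which is the same on both strands), the middle region 3 and the downstream region 37. Of the 32851 promoter regions of equal length in the same table, 31.4%, 76.7% and 5.58% held at least as many, and the median was 7. The letters TATAAA, on either strand, were in 0 of these 3 regions and in 13.6% of all regions. The table matched 5 of the 7 members, and the 8 regions of Epb4.1l1, Epb4.1l2, Epb4.1l3 and Epb4.1l4b held between 2 and 58 CpG dinucleotides.

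Sequence shared with other genes and overlapping transcription were examined for the whole family. Of the 16570 stretches of 50 bases in annotated Epb4.1 transcripts, 0.821% also occurred in a transcript of another gene, and over the 6 paralogues this share lay between 0.0856% and 0.944%. The genes that overlap Epb4.1 exons on the opposite strand, Gm10300 and Gm13063, had 0 counts in all 6 libraries. Of the other genes that lie within members, 2410021H03Rik, antisense to Epb4.1l3, had 5, 12 and 2 counts in NgBR-labelled libraries and 88, 52 and 26 in wild-type libraries, with no exonic overlap. These are raw counts, and wild-type libraries were on average 3.5 times deeper. Scaled to library size, the groups overlapped for this gene. The sources used here do not say whether counting used strand.

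The 6 tested protein-coding genes nearest to Epb4.1 had counts in both groups. Srsf4, a splicing factor whose start lies 202 kb to the left in chromosome order, was at 18.2, 22.4 and 16 CPM in NgBR-labelled libraries and 15, 10.9 and 15.3 CPM in wild-type libraries, without overlap. Ythdf2, a reader of m6A in RNA, whose start lies 137 kb to the right, was at 117, 71.2 and 73 CPM in NgBR-labelled libraries and 68.4, 90.6 and 68.1 CPM in wild-type libraries. The 3 nearest tested genes on the left, Srsf4, Mecr and Ptpru, had log2 fold changes of 0.46, -0.39 and -0.35, and the 3 on the right, Ythdf2, Gmeb1 and Taf12, of 0.2, -0.05 and 0.27. None of the 6 was called at an adjusted p under 0.05 (edgeR adjusted p between 0.577 and 0.976), 0 at an unadjusted p under 0.05, and 0 by DESeq2 or limma-voom. Over all tested genes the shares called were 3.39% by edgeR, 11.4% at that unadjusted p, 4.74% by DESeq2 and 3.24% by limma-voom. For 6 genes, 0 calls lies near these shares. Separate ranges, as for Srsf4, were found in 18.6% of all tested genes. The signs of Ptpru, Ythdf2, Gmeb1 and Taf12 turned in at least 1 alternative. Between these genes lie Tmem200b and Gm10300, with 0 counts in all libraries, and Oprd1, with 0 counts in NgBR-labelled libraries and 1 in wild-type libraries.

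**Figure D1:**
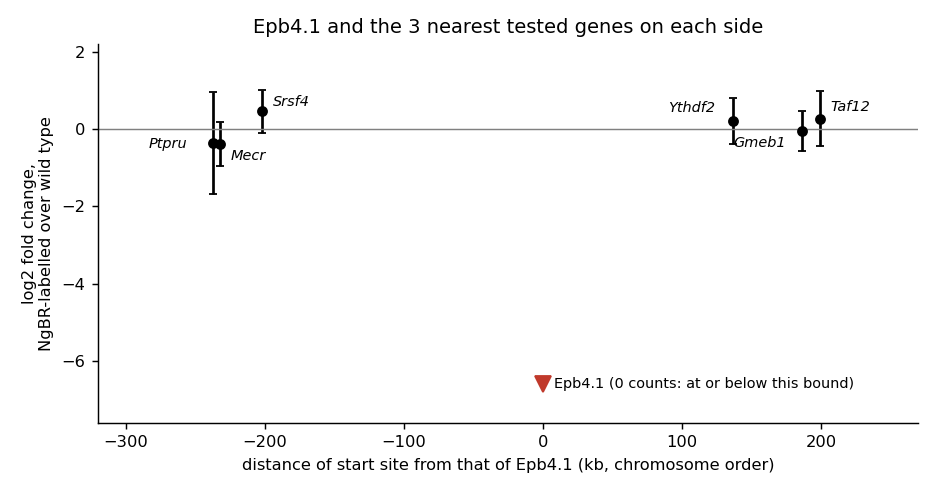
The horizontal axis gives the distance of each start site from that of Epb4.1 in kb, and the vertical axis the log2 fold change of NgBR-labelled over wild-type libraries (n = 3 each), with 95% intervals from edgeR for the 6 neighbours. The triangle is the bound of -6.6 for Epb4.1, while the neighbours lie between -0.39 and 0.46.

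The pattern over the 6 libraries was compared between Epb4.1 and the tested genes other than predicted ones, by the root mean square difference of centred log2 CPM. The closest was Slc6a15, a neutral amino acid transporter (0.29), followed by Ndn, the gene of necdin (0.5), Tgfbi, a matrix protein (0.54), Lum, the proteoglycan lumican (0.57), and Ptp4a3, a phosphatase (0.61). Slc6a15 had 0 counts in NgBR-labelled libraries and 9.79, 18.4 and 12.9 CPM in wild-type libraries, and was highest in wild-type library 2, as was Epb4.1. Ptp4a3 had 1 count over the NgBR-labelled libraries and 685 over the wild-type ones. These genes were picked by their values and the ranking carries no test.

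In the edgeR fit no tested paralogue was called higher or lower. Of the 6, 5 had enough counts to be tested, and edgeR's quasi-likelihood test called 0 of the 5 at an adjusted p under 0.05, beside 3.39% of all tested genes, made up of 2.04% higher and 1.35% lower in NgBR-labelled libraries. At an unadjusted p under 0.05 there were 2 of 5, Epb4.1l2 and Epb4.1l5, beside 11.4% of all tested genes. limma-voom also called 0 of 5, beside 3.24%. DESeq2 called 1 of 6, Epb4.1l4b, which lies below the filter used for edgeR, beside 4.74%. For 3 of the 5, CPM ranges were separate between the groups, beside 18.6% of all tested genes. Epb4.1l1 and Epb4.1l2 were the 2 with higher ranges in NgBR-labelled libraries (9.21% of all genes) and Epb4.1l5 the 1 with a lower range (9.37%).

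Epb4.1l1 encodes the form first described in neurons, where it binds AMPA-type glutamate receptors (ENSMUSG00000027624, mm10 chromosome 2, 156420909 to 156543214, plus strand). It was at 397, 304 and 276 CPM in NgBR-labelled libraries 1 to 3, against 243, 198 and 246 CPM in wild-type libraries 1 to 3. All NgBR-labelled libraries lay above all wild-type ones, and NgBR-labelled library 1 was highest. The mean was 326 ± 62.9 CPM in NgBR-labelled libraries and 229 ± 27.2 CPM in wild-type libraries (SD, n = 3 each), a ratio of 1.42 (log2 fold change 0.51, SE 0.24, 95% interval -0.04 to 1.06, edgeR adjusted p = 0.481). The interval includes no change.

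Epb4.1l2, the gene of the widely expressed form of the family, had the highest mean in NgBR-labelled libraries (ENSMUSG00000019978, chromosome 10, 25359798 to 25523519, plus strand). It was at 308, 441 and 368 CPM in NgBR-labelled libraries, against 237, 237 and 276 CPM in wild-type libraries. The ranges did not overlap here either, and NgBR-labelled library 2 was highest. The mean was 372 ± 66.5 CPM in NgBR-labelled libraries and 250.2 ± 22.3 CPM in wild-type libraries, a ratio of 1.49 (log2 fold change 0.57, SE 0.24, 95% interval 0.03 to 1.12, edgeR adjusted p = 0.396). Its unadjusted p of 0.0408 in edgeR did not survive adjustment over all tested genes.

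Epb4.1l3 encodes the form that binds the adhesion molecule Cadm1 and is known as a tumour suppressor candidate in human lung adenocarcinoma (ENSMUSG00000024044, chromosome 17, 69075683 to 69289989, plus strand). It was at 264, 379.6 and 250.2 CPM in NgBR-labelled libraries, against 345, 346 and 365 CPM in wild-type libraries. NgBR-labelled library 2 was the highest of all 6 and the other 2 NgBR-labelled libraries were the lowest, so the groups overlapped. The mean was 298 ± 71.1 CPM in NgBR-labelled libraries and 352 ± 11.4 CPM in wild-type libraries (log2 fold change -0.24, SE 0.25, 95% interval -0.81 to 0.32, edgeR adjusted p = 0.83).

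Epb4.1l5 had the largest fitted difference of the 5 tested paralogues, with the lower level in NgBR-labelled libraries. Its product binds Crumbs at epithelial junctions and is required for the epithelial to mesenchymal transition of mouse gastrulation (ENSMUSG00000026383, chromosome 1, 119545037 to 119649000, minus strand). It was at 6.17, 8.9 and 4.11 CPM in NgBR-labelled libraries, against 13, 27.8 and 9.87 CPM in wild-type libraries. Wild-type library 2 stood far above the other 2, and the groups did not overlap. The mean was 6.4 ± 2.41 CPM in NgBR-labelled libraries and 16.9 ± 9.6 CPM in wild-type libraries (log2 fold change -1.4, SE 0.44, 95% interval -2.4 to -0.41, edgeR adjusted p = 0.181). Its call depended on the fit. It was called lower with an offset for exonic length (edgeR adjusted p = 0.0398), without a filter on low counts (0.0169) and with the replicate number as a block (0.00719). Without wild-type library 2 the log2 fold change was -0.84 (edgeR adjusted p = 0.434), and over all alternatives the adjusted p lay between 0.00719 and 0.434.

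Epb4.1l4a, a gene of the group without a spectrin-actin-binding domain, had a like mean in both groups (ENSMUSG00000024376, chromosome 18, 33796327 to 34006966, minus strand). It was at 23.7, 31.9 and 27.1 CPM in NgBR-labelled libraries and 27.4, 27 and 28 CPM in wild-type libraries. The wild-type values lay inside the range of the NgBR-labelled ones. The log2 fold change was 0.01 (95% interval -0.47 to 0.48, edgeR adjusted p = 0.997), and its sign turned in 6 alternatives.

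Epb4.1l4b, also called EHM2, was close to silent in wild-type cells (ENSMUSG00000028434, chromosome 4, 56991972 to 57143437, minus strand). It had 9, 8 and 4 counts in NgBR-labelled libraries, against 5, 1 and 2 counts in the deeper wild-type libraries, or 1.26, 0.791 and 0.382 CPM in NgBR-labelled libraries against 0.143, 0.0338 and 0.0602 CPM in wild-type libraries. The groups did not overlap. With 21 counts over the NgBR-labelled and 8 over the wild-type libraries the ratio of pooled CPM was 9.26, with an exact 95% counting interval of 3.94 to 24.2. The gene was below the filter on low counts and had no test in the edgeR fit. DESeq2 gave an adjusted p of 0.0177 and edgeR without a filter one of 0.0438. It was not called in the fits that passed it when 1 NgBR-labelled library was left out (edgeR adjusted p = 0.225, 0.136 and 0.0713 without library 1, 2 or 3). Its difference of 0.733 CPM is small beside the 10.5 CPM of Epb4.1 in wild-type libraries.

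**Figure D2:**
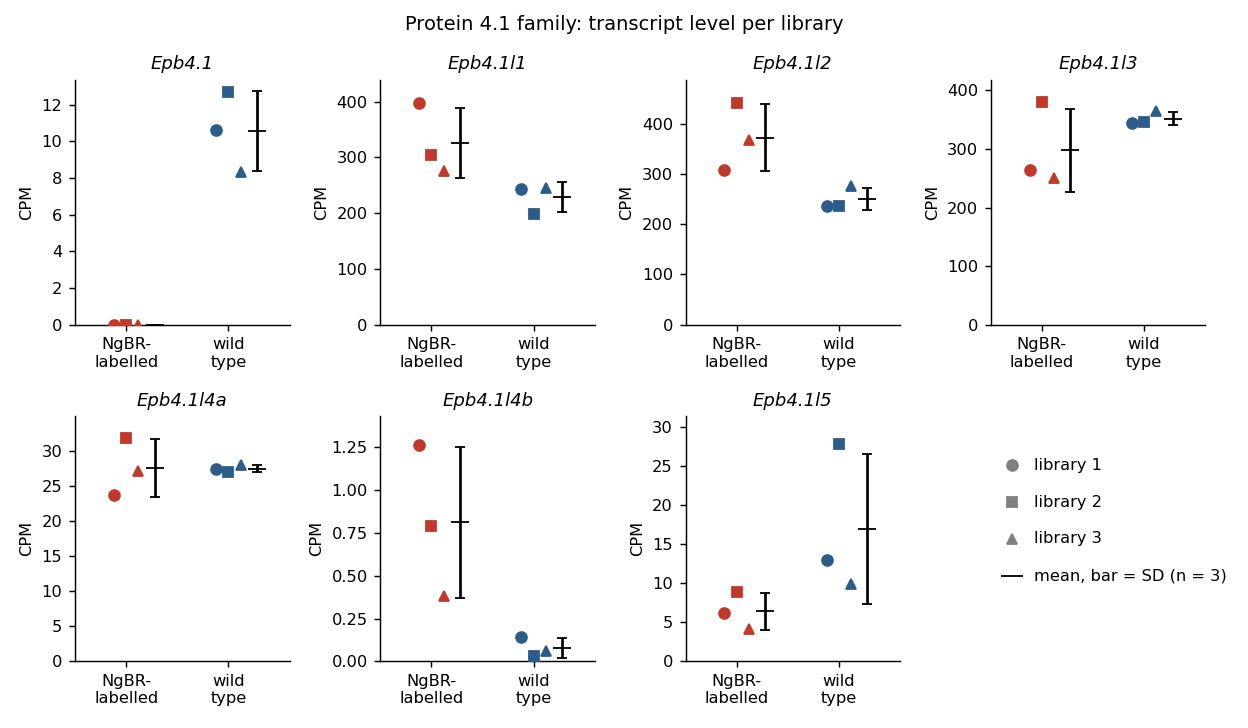
Each panel shows 1 family member, with CPM on the vertical axis from 0, NgBR-labelled libraries left of wild-type libraries, and the mean with its SD (n = 3) beside the points. Epb4.1 lies at 0 in all NgBR-labelled libraries, Epb4.1l1 and Epb4.1l2 lie higher there, and Epb4.1l5 has 1 high value of 27.8 CPM, in wild-type library 2.

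**Figure D3:**
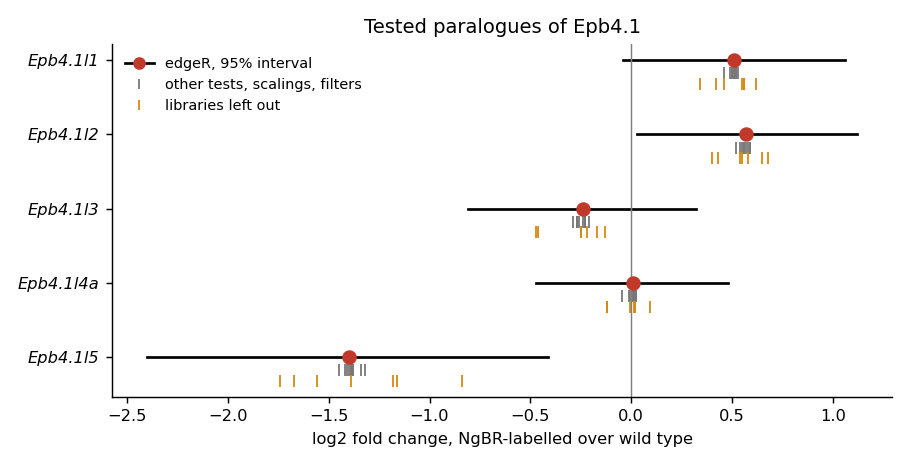
The horizontal axis gives the log2 fold change of NgBR-labelled over wild-type libraries for the 5 tested paralogues, with points and lines for edgeR's estimate and 95% interval. Ticks below each line are the values under the alternatives, which for Epb4.1l1 run between 0.34 and 0.62 and for Epb4.1l5 between -1.74 and -0.84.

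Levels of different members were compared per kilobase of annotated exon. In NgBR-labelled libraries the order of the means began with Epb4.1l2 at 31.4 ± 5.61, Epb4.1l1 at 28.3 ± 5.46 and Epb4.1l3 at 25 ± 5.97 CPM per kb, and these 3 overlapped. Epb4.1l4a stood at 3.04 ± 0.451, Epb4.1l5 at 0.433 ± 0.163, Epb4.1l4b at 0.0917 ± 0.0498 and Epb4.1 at 0 CPM per kb. In wild-type libraries Epb4.1l3 stood first at 29.6 ± 0.96 CPM per kb, above Epb4.1l2 at 21.1 ± 1.89 and Epb4.1l1 at 19.8 ± 2.36 CPM per kb, which overlapped. Epb4.1l4a followed at 3.03 ± 0.0566 CPM per kb, then Epb4.1l5 at 1.15 ± 0.65 and Epb4.1 at 0.661 ± 0.135 CPM per kb, which overlapped, and Epb4.1l4b at 0.00893 ± 0.00644 CPM per kb (SD, n = 3). Epb4.1 was thus a minor member of the family in wild-type NIH3T3 cells.

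The make-up of the family by share of its counts does not depend on library size scaling. Epb4.1l3 took 26.4, 32.6 and 27% of the family's counts in NgBR-labelled libraries, against 39.4, 40.8 and 39.1% in wild-type libraries. Epb4.1l2 took 30.8, 37.8 and 39.7% in NgBR-labelled libraries, against 27.1, 28 and 29.6% in wild-type libraries. For both genes the ranges were separate, and the mean difference was -11.1 percentage points for Epb4.1l3 and 7.91 for Epb4.1l2. Epb4.1l1 took 39.7, 26.1 and 29.8% in NgBR-labelled libraries and 27.7, 23.3 and 26.4% in wild-type libraries, with overlap, and its mean difference of 6.09 points was 2.19 without NgBR-labelled library 1. The gene with most counts was Epb4.1l1 in NgBR-labelled library 1, Epb4.1l2 in NgBR-labelled libraries 2 and 3, and Epb4.1l3 in all 3 wild-type libraries. Epb4.1 itself took 0% in NgBR-labelled libraries and 1.21, 1.49 and 0.893% in wild-type libraries. Shares within a family add to the whole, so a lower share of one member raises the others.

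**Figure D4:**
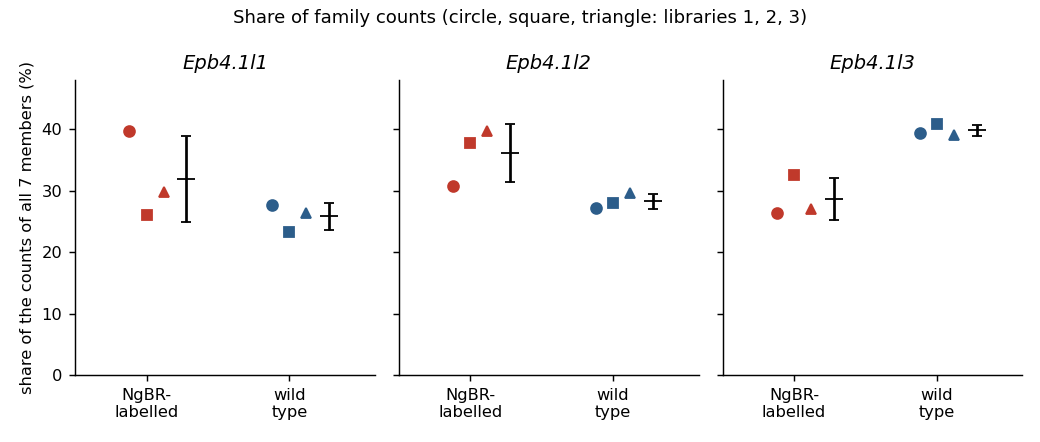
Each panel shows the share, in percent, that 1 gene took of the counts of all 7 members in each library, with the mean and SD (n = 3), NgBR-labelled libraries on the left. Epb4.1l3 lies at 26.4 to 32.6% in NgBR-labelled libraries and at 39.1 to 40.8% in wild-type ones.

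The summed level of the paralogues was set beside the missing Epb4.1. The 6 paralogues added up to 999, 1166 and 926 CPM in NgBR-labelled libraries and to 865, 836 and 925 CPM in wild-type libraries. The ranges were separate by a narrow margin between NgBR-labelled library 3 and wild-type library 3, and stayed separate with 3 other scalings. The mean was 1031 ± 123 CPM in NgBR-labelled libraries and 876 ± 45.5 CPM in wild-type libraries (SD, n = 3 each), a ratio of 1.18 or 0.24 on the log2 scale, which was 0.1 without both libraries numbered 2 and 0.14 without NgBR-labelled library 2. The difference of 155 CPM was 14.7 times the wild-type level of Epb4.1, and it was 87.2 CPM without NgBR-labelled library 2. The SD of the paralogue sum in wild-type libraries alone, 45.5 CPM, exceeded the 10.5 CPM of Epb4.1, so an increase of the size of the missing transcript could not be resolved in this sum. With Epb4.1 included, the family added up to 999, 1166 and 926 CPM in NgBR-labelled libraries and 876, 849 and 934 CPM in wild-type libraries, which overlapped. Per kilobase, the paralogue sums were 85.7, 99.7 and 79.4 in NgBR-labelled libraries and 73.9, 71.1 and 79.1 in wild-type libraries. These sums were formed over members chosen with results known and carry no test.

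The sum divided by domain type. The 3 paralogues with a spectrin-actin-binding domain, Epb4.1l1, Epb4.1l2 and Epb4.1l3, added up to 968, 1125 and 895 CPM in NgBR-labelled libraries and 825, 781 and 888 CPM in wild-type libraries. The difference of their means, 165 CPM, was made up of differences of 97 CPM for Epb4.1l1, 122 CPM for Epb4.1l2 and -54.3 CPM for Epb4.1l3. It was 100.3 CPM without NgBR-labelled library 2. The difference for Epb4.1l1 was 61.6 CPM without NgBR-labelled library 1, and that for Epb4.1l3 was -95.2 CPM without NgBR-labelled library 2 and -30.5 CPM without NgBR-labelled library 3. The 3 without that domain added up to 31.2, 41.6 and 31.6 CPM in NgBR-labelled libraries and 40.6, 54.9 and 38 CPM in wild-type libraries, which overlapped. Their mean difference was -9.71 CPM, beside -10.5 CPM for Epb4.1l5 alone. Without wild-type library 2 these differences were -4.5 and -5.06 CPM.

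Genes that work with the family or share its FERM domain were examined as 7 lists of 92 genes, of which 65 were tested. The lists were chosen with earlier results of these data known, so the shares called in them are a description without a test. edgeR called 5 of the 65 (7.69%, beside 3.39% of all tested genes), 4 higher and 1 lower in NgBR-labelled libraries, at an adjusted p under 0.05. The count was 3 without wild-type library 1 or 3 or without NgBR-labelled library 1 or 2. The spectrin lattice itself held 1 of these calls. Of 7 tested spectrins and adducins, which form the lattice and cap its actin, 1 rose, with a median log2 fold change of 0.01 beside -0.011 for all tested genes. Add3, gamma-adducin, which recruits spectrin to actin ends, was at 144, 219 and 142 CPM in NgBR-labelled libraries and 79.4, 77.9 and 73.9 CPM in wild-type libraries (log2 fold change 1.13 with SE 0.24, adjusted p = 0.0365 in edgeR). Its groups were well apart, and its adjusted p lay between 0.0523 and 0.168 when any 1 library was left out.

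Ankyrins and the actin genes of the junction showed no call, which for so few genes is near the 3.39% of all tested genes called by edgeR. Of 9 tested actins, tropomyosins, tropomodulins and dematin, which build and cap the short filaments, 0 were called by edgeR, with a median of 0.22. At an unadjusted edgeR p under 0.05 there was 1 of the 9, the capping protein gene Tmod3, beside 11.4% of all tested genes. The 2 most abundant, Actb and Actg1, had log2 fold changes of 0.41 and 0.22 (edgeR adjusted p = 0.85 and 0.912). Of 4 ankyrin-list genes 2 were tested and 0 called, 0 at an unadjusted p under 0.05. These were Ank3, at 118, 286 and 91.8 CPM in NgBR-labelled libraries and 179, 141 and 147 CPM in wild-type libraries, and Ank2, both of which changed sign among the alternatives. Epb4.2, the red cell protein that ties band 3 to ankyrin, had 0 counts in all libraries. DESeq2 and limma-voom called 0 genes of these 2 lists, beside 4.74% and 3.24% of all genes they tested.

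The membrane and scaffold partners held 3 of the 5 calls, among 12 tested of 18 (25%, beside 3.39% of all tested genes), with a median of 0.09. As this list was chosen with earlier results known, its share carries no test of enrichment. Cadm1, an adhesion molecule whose cytoplasmic tail binds proteins of this family, was at 21.5, 9.5 and 13 CPM in NgBR-labelled libraries and 0.401, 0.677 and 0.542 CPM in wild-type libraries (log2 fold change 4.75 with SE 0.42, adjusted p = 0.000614 in edgeR). Nrxn3, a neurexin, of the receptors joined to the family through the scaffold protein Cask, was at 9.54, 7.52 and 5.54 CPM in NgBR-labelled libraries and 0.315, 0.677 and 0.241 CPM in wild-type libraries (log2 fold change 4.19 with SE 0.46, adjusted p = 0.00159 in edgeR). Both were far apart between the groups and were called under every alternative run. Cadm1 and Nrxn3 passed the filter on low counts through the NgBR-labelled libraries, where they were high, so their calls are given as a description. Nrxn2, another neurexin, was at 1.96, 1.58 and 0.764 CPM in NgBR-labelled libraries and 5.84, 3.62 and 5.69 CPM in wild-type libraries (log2 fold change -1.84 with SE 0.42, adjusted p = 0.0474 in edgeR). It was no longer called with limma-voom (adjusted p = 0.0701), with a minimum of 1 CPM (edgeR adjusted p = 0.0511), after thinning (0.154), or in 5 of the 6 fits that left out 1 library, the exception being wild-type library 2. Gypc, the glycophorin that binds the red cell protein, was at 65.7, 66.1 and 82.4 CPM in NgBR-labelled libraries and 72.6, 63.1 and 76.4 CPM in wild-type libraries.

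Of the 27 tested genes with a FERM domain outside the family, 1 rose (3.7%, beside 3.39% of all tested genes), with a median of 0.13. Ptk2b, a calcium-responsive tyrosine kinase of the focal adhesion kinase family, was at 7.16, 10.6 and 6.98 CPM in NgBR-labelled libraries and 1.75, 1.29 and 1.96 CPM in wild-type libraries (log2 fold change 2.3 with SE 0.32, adjusted p = 0.00483 in edgeR), and was called under every alternative run. The 4 genes of ezrin, radixin, moesin and merlin, which link actin to the membrane through the same domain, had 0 calls by edgeR, DESeq2 and limma-voom, 0 at an unadjusted p under 0.05 in edgeR and a median of 0.03. Msn, moesin, the most abundant of them, was at 542, 509 and 468 CPM in NgBR-labelled libraries and 442, 396 and 480.2 CPM in wild-type libraries, with overlap, and Rdx had a log2 fold change of -0.11. The Crumbs complex, which binds Epb4.1l5, had 4 tested genes of 8 with 0 calls by the same 3 tools, 0 at an unadjusted p under 0.05 in edgeR and a median of -0.02. Its 2 most abundant genes, Lin7c and Mpp5, had log2 fold changes of -0.06 and 0.02. For lists of 4 tested genes, 0 calls lies near the shares of all tested genes. These were 3.39% by edgeR, 4.74% by DESeq2, 3.24% by limma-voom and 11.4% at an unadjusted edgeR p under 0.05.

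**Figure D5:**
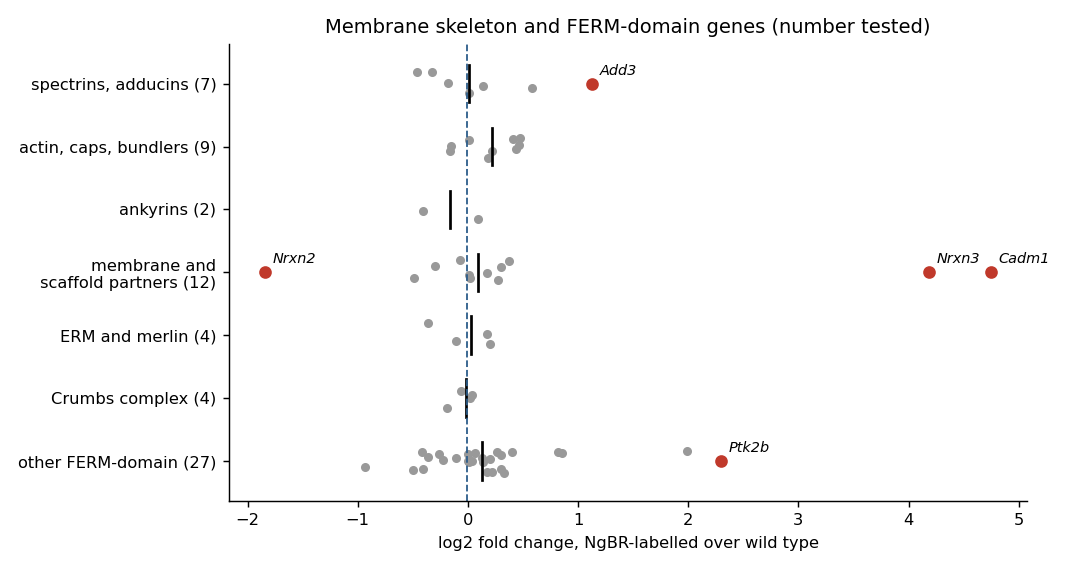
The horizontal axis gives the log2 fold change of NgBR-labelled over wild-type libraries for tested genes of the 7 lists, with the number tested in brackets. Red points with names are the 5 called genes, black bars the list medians, between -0.16 and 0.22, and the dashed line the median of all tested genes.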

How the data were processed

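The deposited values were raw read counts per gene. Per the submitters' processing notes, the tools included HISAT2 2.0.5 and featureCounts 1.5.0-p3, with build mm10. The sources used here do not give the annotation release, strand setting or filters. GENCODE M21 for GRCm38, the assembly of mm10, matched 97.8% of gene identifiers and gave positions and exonic lengths, and RefSeq gave promoter sequences.

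All 35275 genes were filtered with filterByExpr, which left 12651, and tested with edgeR 4.0.16 (R 4.3.3), quasi-likelihood F test, TMM factors, no covariate and Benjamini-Hochberg adjustment over all genes tested. The SE is the absolute log2 fold change over the root of F. The fit was tested on simulated data. Alternatives included DESeq2 1.42.0, limma-voom (limma 3.58.1), other scalings and filters, thinning, an exonic length offset and left-out libraries.

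The family, lists, tests and rules were chosen with earlier results of these data known. Named genes were the 7 members and Nus1, for each list at most 4 called genes whose mean reached 1 CPM, or the 2 most abundant where there were none, the 3 tested protein-coding neighbours on each side of Epb4.1 and the 5 genes closest to it in pattern. Gypc, Epb4.2, Tmod3, Syt1, Map2, Tubb3, Snap25, Tnnt2, Des, Col1a1, Pdgfra and genes at 0 were named after their values were seen.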

Additional observations from a re-analysis of the deposited data

How the results depend on the processing

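The count of genes called by edgeR (429, with 258 higher and 171 lower in NgBR-labelled libraries) was 726 with DESeq2 (456 higher, 270 lower) and 688 without a filter (302 lower), and 263 were lower without both libraries numbered 2. Leaving out 1 library gave 225 to 374 calls, 141 to 209 higher and 84 to 165 lower, and 3 to 4 called genes of the 7 lists. The bound on Epb4.1 then lay between 60.5-fold and 107-fold. The cause of these shifts was not tested, beyond the fewer libraries and counts. Whether libraries of the same number are paired between the groups was not settled. The correlation of their deviations was 0.0147, 0.341 and 0.434 for numbers 1 to 3. For NgBR-labelled libraries 2 and 3 the wild-type library of the same number gave the highest correlation. NgBR-labelled library 1 was near 0 with each, at 0.0147, -0.0186 and 0.0174 for wild-type libraries 1 to 3. With a replicate block edgeR called 719 genes, 418 higher and 301 lower.

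The log2 fold changes of 11 genes, which lay between -0.41 and 0.41, changed sign in at least 1 alternative. None of these was called, and the cause was not tested. Without both libraries numbered 2 they were -0.12 for Epb4.1l4a, -0.049 for Actb, -0.048 for Actg1, -0.64 for Ank3, 0.26 for Ank2, 0.0033 for Rdx, -0.12 for Mpp5, 0.34 for Ptpru and 0.038 for Gmeb1. With library totals they were -0.012 for Epb4.1l4a and -0.00075 for Mpp5, and without a filter -0.045 and -0.032. With the replicate block they were -0.0044 for Epb4.1l4a, -0.0012 for Mpp5 and -0.1 for Ank3, and Ank3 was at -0.084 with limma-voom and -0.17 with the length offset. Gmeb1 was at 0.035 after thinning. Leaving out 1 library gave -0.12 to 0.094 for Epb4.1l4a, -0.041 to 0.39 for Actg1, -0.57 to 0.38 for Ank3, -0.75 to 0.52 for Ank2, -0.3 to 0.018 for Rdx, -0.2 to 0.13 for Mpp5, -0.71 to 0.027 for Ptpru, -0.078 to 0.35 for Ythdf2, -0.16 to 0.12 for Gmeb1 and -0.058 to 0.51 for Taf12. The signs of Epb4.1l1, Epb4.1l2, Epb4.1l3, Epb4.1l5 and the paralogue sum did not turn in the alternatives run. Depth limits what can be said of Epb4.1l4b, which had 21 counts in NgBR-labelled and 8 in wild-type libraries.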
